A study of Mus musculus with 6 samples.

Results

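The chemokines and chemokine receptors of ventral midbrain immune cells were described gene by gene: which cells held their transcripts, and how the levels stood in mice given PBS, α-Syn monomer, or α-Syn pre-formed fibrils (PFF) with or without a JAK inhibitor. Genes were taken by name, from the rows whose symbol begins with Ccl, Cxcl, Ccr, Cxcr, Xcl or Xcr and goes on with a number and at most 1 letter, with at least 50 unique molecular identifiers (UMIs, 1 per captured transcript) over all libraries. Of 32285 genes, 60 rows had such a name and 41 of them reached 50 UMIs: 9 CC chemokines of myeloid cells, 2 CXCR2 ligands, 2 CXCR3 ligands, 5 chemokines of lymphocytes and dendritic cells (DC), 7 homeostatic or stromal chemokines, 10 CC receptors and 6 CXC or XC receptors. Another 8 rows held between 1 and 49 UMIs, Ccl26 with 39 and Cxcl3 with 36 among them, and 11 rows held none. The lowest totals inside the limit were those of Ccr4 and Ccr10, with 85 UMIs each.

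Every mouse was a male of Line 61, which carries human wild-type α-Syn under the Thy1 promoter and so makes it mainly in neurons. The mice were 12 to 15 weeks old at bilateral injection into the striatum and were killed 6 weeks later. PBS, monomer, PFF with oral vehicle (PFF + VH) and PFF with 25 mg/kg of oral AZD1480 (PFF + AZD1480), an inhibitor of JAK1 and JAK2 given daily for 4 weeks from week 2, made 1 droplet library each. A sample pooled 3 to 5 ventral midbrains, from which live CD45+ cells were sorted, so the sort itself kept neurons and most glia out. Hashtag antibodies were used to separate 4 samples in the PFF + VH library and 5 in the PFF + AZD1480 library. These hashtags served as the replicates, on the assumption that each marks a pool of its own and that cells were given to the right one. PBS and monomer had no such division here, so their values stand without a test, and library cannot be told apart from condition anywhere, since each condition was in 1 library.

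Depth differed between the libraries. The 4 libraries held 99658216 to 116440449 UMIs, and 14617 (PBS), 15031 (monomer), 34436 (PFF + VH) and 13021 (PFF + AZD1480) cells passed the filters of the study, with a median of 2306 UMIs per cell in PFF + VH against 6616 to 7028 in the others. A single hashtag was called for 52.0% of the PFF + VH cells and 81.0% of the PFF + AZD1480 cells. Between 45 and 151 cell barcodes were shared by any pair of libraries, at most 1.03% of the cells of the smaller library of the pair. Levels are CPM, the UMIs of a gene scaled to the same total of UMIs, summed over the cells of a class, either in a library or in a hashtag.

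Chemokines are small secreted proteins that steer leukocytes along gradients by way of G protein-coupled receptors, and their families are named for the spacing of the first cysteines. In the brain, microglia and the macrophages of its borders make many of them after injury or infection, and the ligands of CCR2, CXCR2 and CXCR3 are known for calling in monocytes, neutrophils and T cells. Janus kinases carry signals of cytokine receptors, such as those for interferons, to STAT factors, and chemokine genes such as Cxcl9 and Cxcl10 are known targets of that path, whereas Cxcl1 and Cxcl2 are known targets of NF-κB.

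The genes of the ligands lie in clusters. In the GENCODE vM21 annotation of GRCm38 (mm10, the build of the deposited counts), 23 of the 41 genes lay in 6 groups with less than 1 Mb between neighbours. Ccl2, Ccl7, Ccl12, Ccl8 and Ccl1 lay on chr11:82035571-82305690 and Ccl5, Ccl9, Ccl6, Ccl3 and Ccl4 on chr11:83525778-83664683, and Ccr9, Cxcr6, Xcr1, Ccr1, Ccr3 and Ccr2 lay in a cluster of receptor genes on chromosome 9. On chromosome 5, Cxcl1 and Cxcl2 spanned 14.7 kb and Cxcl9 and Cxcl10 27.54 kb, and Ccl22 and Ccl17 spanned 66.45 kb of chromosome 8. Only Ccr9 overlapped annotated genes on its own strand, and 12 genes, Ccl2, Ccl6 and Xcl1 among them, overlapped a gene on the other strand. Ccl27a has near-identical copies in the genome, so its counts are uncertain.

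The promoters of 5 genes are shown because the results below turn on them: Ccl12, Ccl6 and Ccr1 had lower levels with AZD1480 in microglia, Cxcl2 had higher ones, and Cxcl10 is the textbook interferon target of the set. Each is the RefSeq sequence (GRCm38.p6) from 250 bases before to 50 bases after the start, read 5′ to 3′ along the gene, with matches to any of the searched motifs in capitals on either strand. The motifs were the STAT site TTCNNNGAA, the interferon-stimulated response element (ISRE) and the NF-κB consensus; overlapping matches run together.
Ccl12, chr11:82101595-82101894, plus strand: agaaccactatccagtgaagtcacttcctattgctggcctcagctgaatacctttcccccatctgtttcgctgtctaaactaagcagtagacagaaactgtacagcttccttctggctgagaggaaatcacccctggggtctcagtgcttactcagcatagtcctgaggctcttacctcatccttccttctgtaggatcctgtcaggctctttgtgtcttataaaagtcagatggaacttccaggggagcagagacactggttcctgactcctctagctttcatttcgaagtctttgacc
Ccl6, chr11:83593038-83593337, minus strand: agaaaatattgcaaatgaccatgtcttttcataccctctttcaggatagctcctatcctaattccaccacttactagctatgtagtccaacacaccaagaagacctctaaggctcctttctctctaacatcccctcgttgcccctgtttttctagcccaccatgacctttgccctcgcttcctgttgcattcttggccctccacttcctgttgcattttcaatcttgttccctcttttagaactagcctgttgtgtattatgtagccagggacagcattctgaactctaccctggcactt
Ccr1, chr9:123968643-123968942, minus strand: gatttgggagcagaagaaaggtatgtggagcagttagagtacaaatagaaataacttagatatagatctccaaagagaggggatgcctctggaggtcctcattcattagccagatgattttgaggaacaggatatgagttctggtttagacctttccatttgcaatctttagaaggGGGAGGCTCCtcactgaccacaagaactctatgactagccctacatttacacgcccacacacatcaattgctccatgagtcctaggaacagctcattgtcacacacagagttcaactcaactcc
Cxcl2, chr5:90903649-90903948, plus strand: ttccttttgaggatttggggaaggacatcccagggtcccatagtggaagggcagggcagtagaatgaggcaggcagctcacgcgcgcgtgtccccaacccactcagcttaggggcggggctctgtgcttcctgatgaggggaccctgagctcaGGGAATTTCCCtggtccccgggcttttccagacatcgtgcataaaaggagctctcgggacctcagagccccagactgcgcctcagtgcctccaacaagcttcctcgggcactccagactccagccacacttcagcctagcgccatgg
Cxcl10, chr5:92348840-92349139, minus strand: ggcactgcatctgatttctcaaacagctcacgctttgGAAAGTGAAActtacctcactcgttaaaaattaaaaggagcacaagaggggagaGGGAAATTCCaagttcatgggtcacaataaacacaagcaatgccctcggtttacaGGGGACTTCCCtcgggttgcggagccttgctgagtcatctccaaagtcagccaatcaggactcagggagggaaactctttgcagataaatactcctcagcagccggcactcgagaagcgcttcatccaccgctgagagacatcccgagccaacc
The promoters of Ccl12 and Ccl6 held no match, that of Ccr1 held 1 match to the NF-κB consensus, that of Cxcl2 held 2 overlapping matches to it, and that of Cxcl10 held 3 matches to it and 1 to the interferon element, which is the first run of capitals. Of the 30 genes of the set with a promoter in the table, 3 had a match to the STAT site, 2 to the interferon element and 9 to the NF-κB consensus. Of all 32851 promoters of the same length, 8.3%, 3.44% and 8.46% held them. A match is only a run of letters, and its absence says nothing of sequence outside this window.

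The first question was which cells make each chemokine or receptor. Cells were assigned to 8 classes by the UMIs of marker lists that held none of the 41 genes: microglia-like (MG), border macrophage-like, monocyte-like (with other macrophages), DC-like, T cell-like, NK cell-like, B cell-like and neutrophil-like. MG made up 13017, 13388, 29708 and 11521 cells of PBS, monomer, PFF + VH and PFF + AZD1480. Border macrophages made up 225, 157, 236 and 266 cells, and each of the other classes between 17 and 138. The classes are ranges of a score: 780 to 921 MG of the 3 deeper libraries and 5339 of the 29708 MG of PFF + VH lay near the limit, and a further 922 to 4005 cells a library fitted no class. The median MG cell held 22 to 76 UMIs of its own markers and 1 to 3 of the other lists.

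Microglia held most transcripts of the genes with the highest counts. Ccl4 and Ccl3, chemokines that attract T cells and macrophages, were at 4696 and 1910 CPM in MG as the mean of the 4 libraries, Ccl12, a ligand of CCR2, at 265 CPM, and Ccl6, a ligand of CCR1, at 210 CPM. MG held 96.0% of all Ccl4 UMIs of the kept cells, 95.7% of Ccl3, 88.8% of Ccl12 and 93.8% of Ccl6. Ccl4 and Cxcl17 had their highest mean level in MG, whereas Ccl3, Ccl12 and Ccl6 did not.

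**Figure D1:**
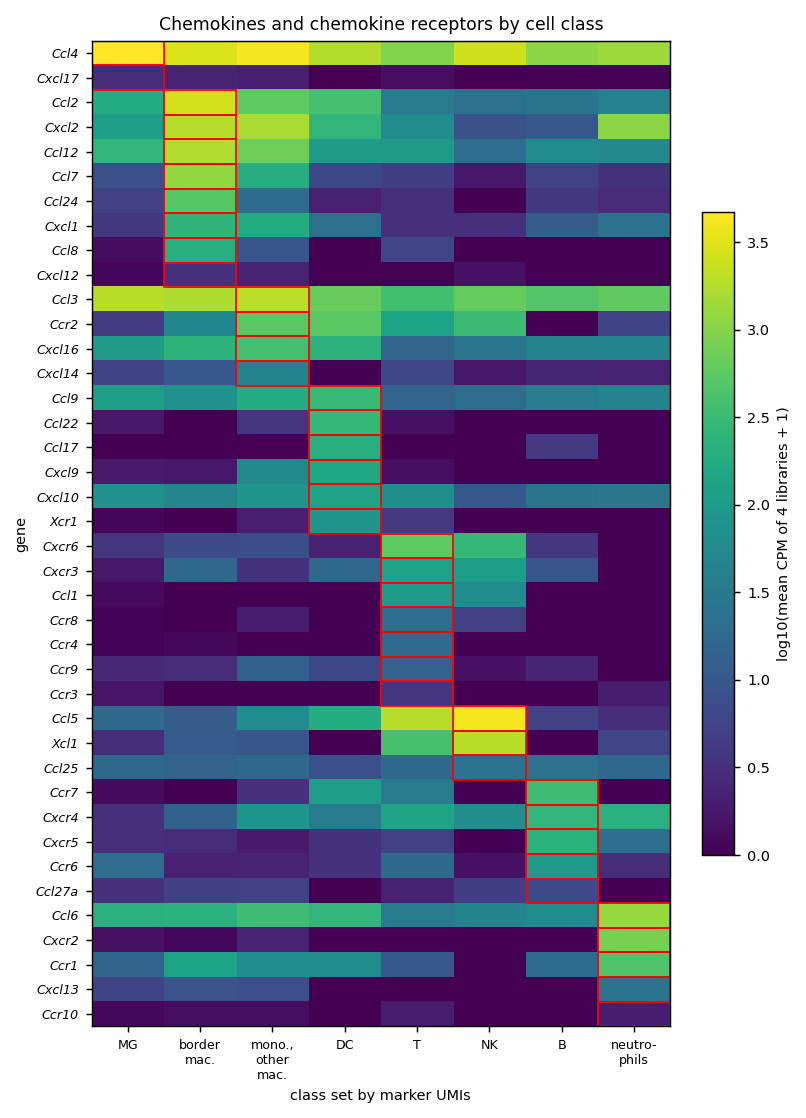
Levels of 40 of the 41 chemokine and chemokine receptor genes (rows) in the 8 cell classes (columns), as the log10 of the mean CPM of the 4 libraries plus 1; a red frame marks the class with the highest mean. Ccl3 and Ccl4 are bright in every class, whereas Ccl7, Ccl24 and Ccl8 are bright in border macrophages, Ccl5 and Xcl1 in T and NK cells, and Cxcr2 in neutrophils.

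Of the 8 classes, border macrophages were highest for 8 genes, Ccl2, Ccl7, Ccl8, Ccl12, Ccl24, Cxcl1, Cxcl2 and Cxcl12. For Cxcl12 this rested on 1 to 4 UMIs a library. Of the 300 Cxcl12 UMIs of the kept cells, border macrophages held 2.67% and MG 18.3%, and most lay in cells outside the 8 classes. Cxcl2 was highest in border macrophages in 2 of the 4 libraries and Cxcl1 in 3. Ccl2, the main ligand of CCR2, was at 2672 CPM there against 576.5 in monocytes and 188 in MG. Ccl7, a second ligand of CCR2, was at 1193 CPM against 6.85 in MG, Ccl24, a ligand of CCR3, at 513 CPM against 4.24, and Ccl8 at 200 CPM against 0.331. So for Ccl7, Ccl24 and Ccl8 the border macrophages, 157 to 266 cells a library, held 59.6%, 53.8% and 76.2% of all UMIs.

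Lymphocytes and neutrophils carried sets of their own. Ccl5, which attracts T cells, was at 4172 CPM in NK cells and 1922 in T cells against 17.5 in MG, and Xcl1, the ligand of XCR1, at 1871 in NK cells and 400 in T cells against 1.99 in MG. T cells had the highest mean levels of Cxcr6 (569 CPM), Cxcr3 (130 CPM) and Ccl1 (101 CPM). For Cxcr3 NK cells stood above T cells in PFF + AZD1480, at 146.9 against 118.5 CPM. The level of Ccl1 came from 4 to 7 T cells a library, and in monomer NK cells stood above T cells, at 144.9 against 71.2 CPM. B cells were highest for Ccr7, Cxcr4, Cxcr5 and Ccr6, with means of 339, 261, 223 and 96.4 CPM. In PBS neutrophils stood above B cells for Cxcr4, at 330.9 against 283.9 CPM. Neutrophils were highest for Cxcr2, the receptor of Cxcl1 and Cxcl2, with 820 CPM against 1.33 in monocytes, for Ccl6 with 1288 CPM and for Ccr1 with 451 CPM. DC were highest for Ccl22 and Ccl17, both ligands of CCR4, with 281 and 205 CPM, but these means rested on the 22 DC of PBS, where Ccl22 was at 896 CPM and Ccl17 at 783 CPM. In the other libraries Ccl17 stood on 1 or 2 UMIs, and Ccl22 on 1, 4 and 36. Xcr1, the marker receptor of cross-presenting DC, was at 82.1 CPM, on 1 UMI in PBS and 38 UMIs in 3 cells in PFF + AZD1480.

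The order of classes was tested in samples that did not set it. For each gene the first and second class were taken from PBS and monomer, and their log2 difference was tested over the 9 hashtags of the PFF libraries with an exact sign-flip permutation test (two-sided, smallest possible p 0.00391). Of 41 genes, 10 had a higher first class at an adjusted p under 0.05: Ccl2, Ccl8, Ccl12, Ccl24 and Cxcl2 in border macrophages, Ccl5 and Xcl1 in NK cells, Cxcr6 in T cells, and Ccl6 and Cxcr2 in neutrophils. Ccl2 was higher in border macrophages than in monocytes in 9 of 9 hashtags (exact p = 0.00391, adjusted p = 0.0229), Ccl24 likewise (9 of 9, exact p = 0.00391), and Cxcr6 was higher in T than in NK cells in 8 of 9 (exact p = 0.00781, adjusted p = 0.0320). The order of MG and monocytes for Ccl4 did not hold up, with MG higher in 4 of 9 hashtags (exact p = 0.668). The small classes rested on few cells in this test, with 2 to 45 T and NK cells a hashtag. In many hashtags the second class had 0 UMIs of the gene, in 9 of 9 for Cxcr2, 8 for Ccl8, 6 for Ccl24, 3 for Cxcl2, 2 for Xcl1 and 1 each for Ccl5, Ccl6 and Cxcr6, so the size of these differences depends on the 1 CPM added before the log2. For Cxcl2 the neutrophils of the other hashtags reached 1754 CPM, on totals as low as 3406 UMIs. In the sums of whole libraries Cxcl2 was at 978.6 CPM in border macrophages against 724.6 in neutrophils of PFF + VH, and at 2825 against 600.5 CPM in PFF + AZD1480. Monocytes, which this test did not set against border macrophages for Cxcl2, were at 1156 CPM in PFF + VH, above border macrophages, and at 2232 in PFF + AZD1480.

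Ccl3 and Ccl4 were also counted in cells of every other class. B cells, which can release both when their receptor is engaged, were at 337 to 2096 CPM of Ccl4 and 210 to 1103 CPM of Ccl3, and 59.3% to 87.8% of them had a UMI of Ccl4. The summed microglial markers stood at 426 to 1624 CPM in T cells against 8882 to 10810 in MG. Unthinned, 94.2% of the MG of PFF + VH had a UMI of Ccl4 at a median of 2551.5 UMIs per cell, against 87.8% of its B cells at 2694. Ccl5 stood at 1 UMI in the B cells of 3 libraries and at 0 in those of monomer, against 1024 to 3123 CPM in T cells. The part of RNA from other cells in these levels was not tested.

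Within microglia, Ccl3 and Ccl4 were found in many cells and most other chemokines in few. After each cell was thinned to 1000 UMIs, 60.1%, 65.4%, 84.4% and 77.1% of the MG of PBS, monomer, PFF + VH and PFF + AZD1480 had a UMI of Ccl4, and 43.6%, 45.1%, 64.8% and 62.8% one of Ccl3. Of these thinned cells, the 1% with the most UMIs of Ccl4 held 5.86% to 8.31% of its UMIs, whereas the corresponding 1% held 30.8% to 44.4% for Ccl2, 43.2% to 71.8% for Cxcl10 and 33.0% to 67.4% for Cxcl2. This share rises as a gene becomes sparser, so genes of like counts are the closer comparison. In PBS the top 1% held 59.2% of the 801 UMIs of Cxcl2 but 23.0% of the 821 UMIs of Cxcl16. The genes also met in the same cells: of PFF + VH microglia with a UMI of Ccl12, 17.4% had one of Ccl2, against 9.08% of those without, and the same pair stood at 16.7% against 6.11% in PBS.

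Across the 4 libraries, the microglial level of several genes was higher after PFF than after PBS or monomer, with 1 library a condition and therefore no test. In the order PBS, monomer, PFF + VH and PFF + AZD1480, Ccl5 was at 7.86, 7.96, 35.9 and 18.4 CPM, and Cxcl14 at 1.16, 1.70, 8.59 and 7.32. Cxcl10, the interferon-induced ligand of CXCR3, was at 41.9, 54.3, 102 and 84.9 CPM, and Cxcl16, the ligand of CXCR6, at 65.8, 79.0, 142 and 137 CPM. These genes stood highest in PFF + VH. Inside the MG class the markers of NK cells, T cells and monocytes were also highest in PFF + VH: in the same order the 9 NK markers summed to 2.86, 2.51, 9.77 and 2.08 CPM, the 10 T cell markers to 6.73, 5.25, 15.8 and 7.435 CPM and the 13 monocyte markers to 65.7, 65.5, 102 and 59.6 CPM. So were those of neutrophils, at 17.2, 6.73, 83.4 and 68.4 CPM, and of border macrophages, at 91.4, 100.4, 103.8 and 99.4 CPM. Markers of cells that are not immune cells (14.1, 13.2, 19.8 and 18.3 CPM) and of mast cells (0.105, 0.588, 1.05 and 0.815 CPM) had the same highest library. The markers of DC and B cells were lowest in PFF + VH, at 432.1, 433.0, 393.5 and 398.5 CPM and at 312.7, 278.1, 249.3 and 253.5 CPM. The part of any of these markers in the microglial levels, such as those of Ccl5, Ccl6 and Ccr1, was not tested.

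For Ccr1 the inhibitor library stood lowest of the 4. Ccr1, a receptor of Ccl3, Ccl5 and Ccl6, was at 13.01, 14.2, 27.8 and 2.22 CPM in the same order of libraries, so the PFF + AZD1480 library was under PBS as well as under PFF + VH. Ccl6 was at 142, 235, 324 and 139 CPM and Ccl12 at 299, 195, 370 and 197 CPM, so for both the inhibitor library lay near the lower of the control values. Intervals that cover counting error only, not the spread between samples, were narrow, such as 26.7 to 28.8 CPM for Ccr1 in PFF + VH and 1.90 to 2.57 in PFF + AZD1480.

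**Figure D2:**
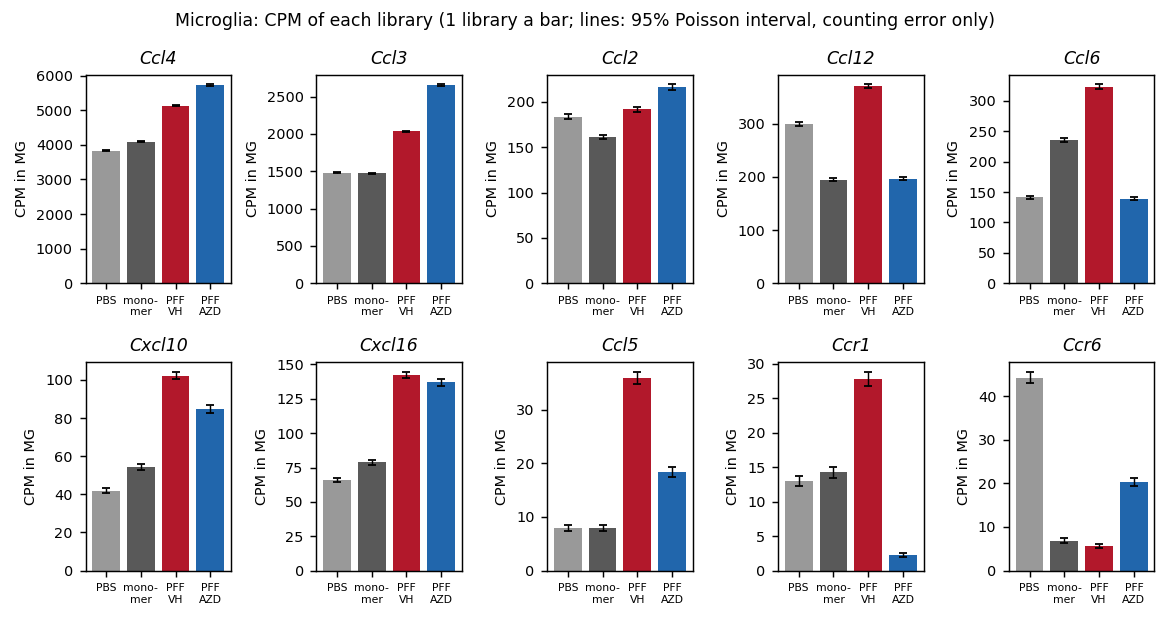
CPM of 10 genes in microglia (vertical axis) for each of the 4 libraries (bars, 1 library each), with 95% Poisson intervals that cover counting error only. Ccl5, Ccl6, Cxcl10 and Ccr1 are highest in PFF + VH, Ccr1 is lowest in PFF + AZD1480, and Ccr6 is highest in PBS, at 44.3 CPM.

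Ccr6, the receptor of Ccl20, stood apart from these patterns. Its microglial level was 44.3, 6.84, 5.65 and 20.3 CPM in the same order of libraries. Within the last library 1 hashtag stood apart: hashtag 5 of PFF + AZD1480 was at 128 CPM, whereas the other 4 were at 5.82, 7.75, 7.64 and 5.56 CPM and the 4 hashtags of PFF + VH at 5.69, 5.09, 5.49 and 5.15 CPM. In that hashtag 12.05% of thinned MG had a UMI of Ccr6. The gene was not called (log2 fold change 2.33, SE 0.98, adjusted p = 0.0971), and without hashtag 5 the log2 fold change was 0.27 (SE 0.14, adjusted p = 0.179).

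The other classes had no replicates for their library values, and each rests on few cells. In border macrophages the values in the same order were 2391, 3000, 3220 and 3410 CPM for Ccl4 and 1412, 1608, 1533 and 2054 CPM for Ccl3. Ccl2 was at 2045, 2209, 2181 and 4256 CPM, Cxcl2 at 1627, 1785, 978.6 and 2825 CPM and Ccl12 at 1795, 1657, 1369 and 2100 CPM, so all 5 were highest in PFF + AZD1480. In monocytes Ccl4 was at 3806, 3769, 3910 and 5433 CPM, Ccl3 at 1997, 1474, 1985 and 2510 CPM and Cxcl2 at 1431, 1507, 1156 and 2232 CPM, again highest in that library. Monocyte Ccl12 was at 869.6, 881.5, 307.7 and 825.4 CPM and Ccl2 at 900.6, 390.5, 244.4 and 770.5 CPM, both lowest in PFF + VH. In DC, Ccl4 was at 1818, 1403, 2522 and 1431 CPM, Ccl3 at 345.1, 761.3, 560.5 and 922.6 CPM, Ccr2 at 427.5, 496.5, 738.8 and 494.6 CPM, Ccl2 at 298.7, 549.5, 343.9 and 337.7 CPM and Ccl9 at 298.7, 125.8, 280.2 and 527.9 CPM.

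In T cells Ccl5 was at 3123, 1816, 1726 and 1024 CPM, highest in PBS, and Cxcr6 at 348.1, 655, 526.9 and 745.5 CPM, lowest there. Their Xcl1 was at 414.2, 362.3, 644.6 and 178.6 CPM, and the 2 ligands shared with MG at 839.7, 838.5, 1134 and 960.6 CPM for Ccl4 and 161, 338.6, 557.9 and 373.7 CPM for Ccl3. In NK cells Ccl5 was at 5592, 3143, 5450 and 2503 CPM, Ccl4 at 1909, 3305, 2698 and 2274 CPM and Ccl3 at 277.9, 652, 1076 and 558.2 CPM, with no common order of the libraries. B cells had the receptors of lymph node homing, Ccr7 at 346.3, 291.1, 281.4 and 435.6 CPM and Cxcr5 at 312.3, 167.4, 112.5 and 300.6 CPM, and Cxcr4, the receptor of Cxcl12, at 283.9, 276.6, 157.6 and 325.2 CPM, each highest in PBS or in PFF + AZD1480. Their Ccl4 was at 840.3, 2096, 1215 and 337.4 CPM and their Ccl3 at 210.1, 422.1, 1103 and 233.1 CPM. In neutrophils Ccl6 was at 1369, 1575, 1176 and 1031 CPM, Cxcl2 at 1155, 1836, 724.6 and 600.5 CPM and Cxcr2 at 1129, 1043, 403.9 and 702.2 CPM, all higher in PBS and monomer than in the PFF libraries. Their Ccl4 was at 882.5, 498.7, 2772 and 1259 CPM and their Ccl3 at 538.6, 102, 962.2 and 743.4 CPM, both highest in PFF + VH. The median neutrophil of that library also held the most UMIs of the other classes' markers, 7 against 1 to 3, and the fewest of its own, 114 against 377.5 to 1345, and their part in these levels was not tested.

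The comparison with replicates asks what AZD1480 changed in PFF mice. In MG, 31 of the 41 genes had enough counts to be tested, and 10 of them (32.3%) passed an adjusted p of 0.05 in edgeR's quasi-likelihood test, 2 higher and 8 lower with the inhibitor. Of all 13582 genes tested in MG, 27.0% passed, 12.3% higher and 14.7% lower, so the share called in the set was close to that of all genes. The median log2 fold change of the set was -0.23 against -0.0016 for all genes, and its median absolute change 0.45 against 0.17. With 1 hashtag left out these values of the set ran from -0.34 to -0.12 and from 0.33 to 0.51. Both -0.12 and 0.33 came without AZD1480 hashtag 5. All genes were not matched to the set for level, and several genes of the set stood at a few CPM in MG. Hashtags of the libraries did not overlap for 8 of the 31, against 24.2% of all genes tested.

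**Figure D3:**
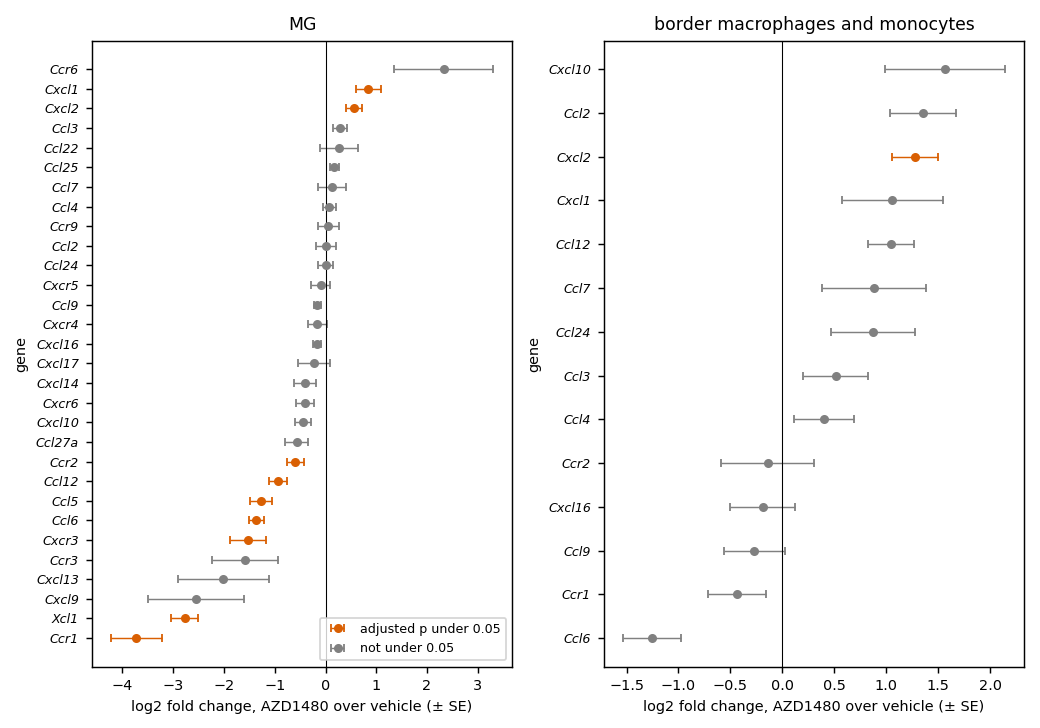
Log2 fold change of PFF + AZD1480 over PFF + VH (horizontal axis, points) with its standard error (lines) for 30 of the 31 genes tested in microglia (left) and 14 of the 15 tested in border macrophages and monocytes (right); orange marks an adjusted p under 0.05. On the left Ccr1 is lowest at -3.73, with Cxcl1 and Cxcl2 called higher; on the right only Cxcl2 is called, at 1.27.

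Among the 10 called genes the change was largest for Ccr1. Its level was 30.7, 19.6, 37.4 and 26.9 CPM in the 4 vehicle hashtags and 0.569, 5.64, 0.209, 0.605 and 4.71 CPM in the 5 hashtags of AZD1480. Every vehicle hashtag was above every AZD1480 hashtag, and hashtags 2 and 5 of AZD1480 were well above the other 3. Ccr1 fell by 3.73 on the log2 scale (SE 0.50, adjusted p = 0.000302). The share of thinned MG with a UMI of Ccr1 went the same way, with 2.58% ± 0.72 (SD, n = 4) against 0.141% ± 0.179 (SD, n = 5), an exact permutation p of 0.0159, the smallest that 4 against 5 can give, and an adjusted p of 0.0370 over 14 genes. Unthinned, 6.12% of the MG of PFF + VH had a UMI of Ccr1 (median 2551.5 UMIs per cell) and 0.929% of those of PFF + AZD1480 (median 6929). In B cells, which are not known for Ccr1, the shares were 2.04% and 6.90%, on 1 of 49 and 2 of 29 cells with medians of 2694 and 5096 UMIs. The exact binomial intervals of these B cell shares were 0.0517% to 10.85% and 0.846% to 22.8%. Each holds the share of the microglia of the same library, so these B cells cannot set either microglial share apart from theirs.

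The chemokines Ccl6 and Ccl12 also fell in MG. Ccl6 was at 366, 426, 277 and 248 CPM with vehicle and at 119, 146, 129, 156 and 113 CPM with AZD1480. The vehicle hashtags spread widely, but the lowest lay above the highest AZD1480 hashtag. The log2 fold change was -1.36 (SE 0.15, adjusted p = 8.28e-05). Ccl12 was at 378, 340, 448 and 326 CPM against 214, 239, 118, 180 and 262 CPM, again without overlap, and fell by 0.94 on the log2 scale (SE 0.18, adjusted p = 0.00247). The shares of thinned MG with a UMI of Ccl6 and Ccl12 were 25.04% ± 4.81 and 21.2% ± 2.18 with vehicle (SD, n = 4) against 11.2% ± 1.21 and 11.9% ± 2.61 with AZD1480 (SD, n = 5; exact permutation p = 0.0159 each). Without thinning, where AZD1480 cells are deeper, 48.1% (PFF + VH) and 42.4% (PFF + AZD1480) of MG had a UMI of Ccl6, and 38.5% and 36.5% one of Ccl12. B cells stood at 20.4% and 13.8% for Ccl6 and 20.4% and 10.3% for Ccl12, at the depths given above.

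The most abundant ligands did not pass the test. Ccl3 was at 1867, 2356, 2430 and 1777 CPM with vehicle and 3190, 3173, 2448, 2060 and 2477 CPM with AZD1480, and Ccl4 at 4550, 5905, 5919 and 4721 against 6819, 6625, 5216, 4735 and 5480 CPM. The groups overlapped for both, with log2 fold changes of 0.28 (SE 0.15, adjusted p = 0.169) and 0.07 (SE 0.13, adjusted p = 0.713). Ccl2, the ligand of CCR2, was at 178, 168, 262 and 179 CPM against 188, 300, 138, 181 and 225 CPM, with a log2 fold change of 0.01 (SE 0.19, adjusted p = 0.971).

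The 2 CXCR2 ligands, which attract neutrophils, rose. Cxcl2 was at 93.1, 130, 167 and 117 CPM with vehicle and at 189, 225, 201, 157 and 200 CPM with AZD1480. The highest vehicle hashtag lay above the lowest of AZD1480, so the groups overlapped at 1 hashtag each. The log2 fold change was 0.56 (SE 0.15, adjusted p = 0.0167). Cxcl1 was at 2.33, 2.897, 4.72 and 2.20 CPM against 6.77, 4.78, 3.66, 6.38 and 6.32 CPM, with a log2 fold change of 0.84 (SE 0.25, adjusted p = 0.0239), a call that was lost in 5 of the 9 fits that left out a hashtag, with adjusted p up to 0.0741. Cxcl1 and Cxcl2 stood higher in border macrophages, at 248 and 1804 CPM, than in MG, at 2.93 and 111 CPM. Inside MG the border macrophage markers summed to 79.7 to 100.3 CPM with vehicle and 86.3 to 103.9 with AZD1480 (exact permutation p = 0.825). Their part in the rises was not tested.

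**Figure D4:**
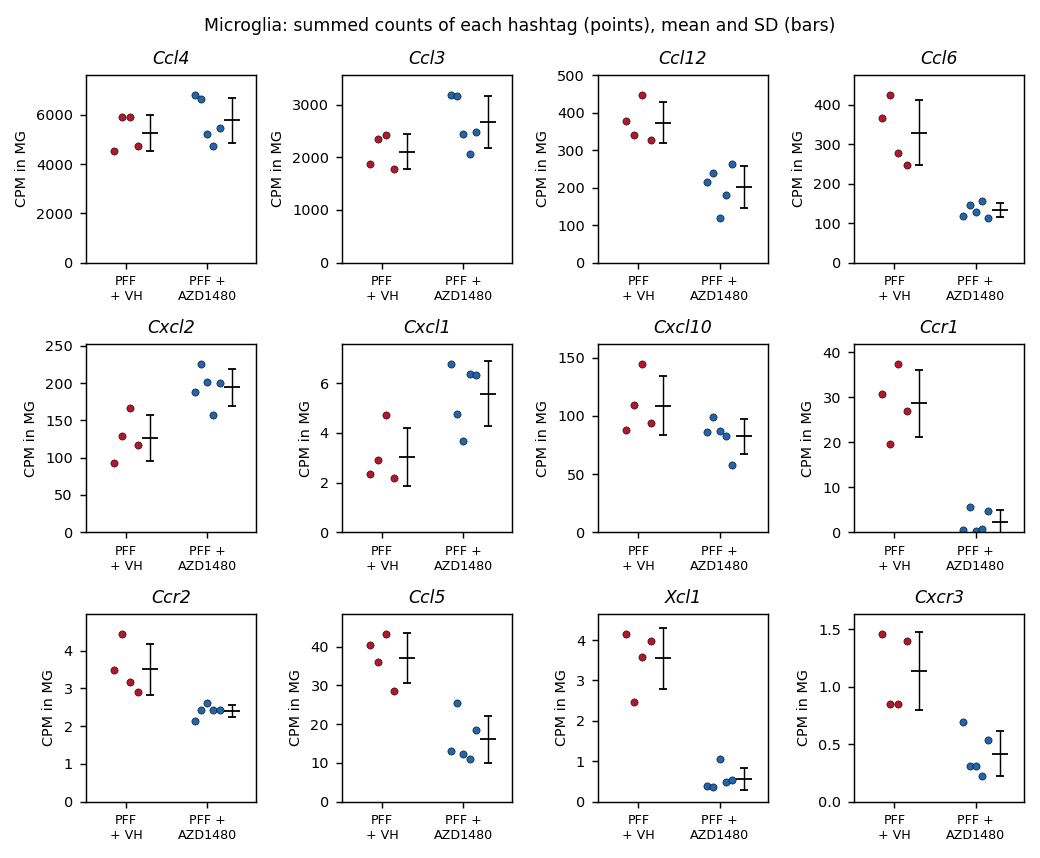
CPM in microglia (vertical axes, from 0) for each hashtag (points) of PFF + VH (red, 4) and PFF + AZD1480 (blue, 5), with the mean and SD (bars), for 12 genes. For Ccl12, Ccl6, Ccr1, Ccr2, Ccl5, Xcl1 and Cxcr3 every red point lies above every blue point; for Ccl4, Ccl3, Cxcl2, Cxcl1 and Cxcl10 the groups overlap.

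The remaining calls in MG were for genes whose level was far higher in lymphocytes or monocytes. Ccl5 was at 40.4, 36.0, 43.3 and 28.6 CPM against 12.96, 25.5, 12.2, 10.9 and 18.6 CPM (log2 fold change -1.26, SE 0.22, adjusted p = 0.00138). Xcl1 was at 4.16, 2.47, 3.59 and 3.97 CPM against 0.379, 0.372, 1.05, 0.495 and 0.538 CPM and fell by 2.78 on the log2 scale (SE 0.27, adjusted p = 5.34e-05). Over the alternative settings its log2 fold change ran from -3.53 to -1.63. Ccl5 and Xcl1 both stood far higher in T and NK cells than in MG. Cxcr3, the receptor of Cxcl9 and Cxcl10, was at 1.46, 0.848, 0.845 and 1.39 CPM against 0.696, 0.31, 0.314, 0.22 and 0.538 CPM and fell by 1.53 on the log2 scale (SE 0.35, adjusted p = 0.00714). Ccr2, the receptor of Ccl2, was at 3.5, 4.45, 3.17 and 2.89 CPM against 2.15, 2.42, 2.62, 2.42 and 2.42 CPM and fell by 0.59 (SE 0.16, adjusted p = 0.0181). No hashtag overlapped for any of these 4 genes.

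Markers of those other cells moved with them inside the MG class. The 9 NK markers summed to 5.42 to 9.77 CPM in the vehicle hashtags and to 0.942 to 2.41 with AZD1480, none of them at 0 throughout, and the 10 T cell markers to 11.5 to 13.6 against 3.08 to 5.77 CPM. The 13 monocyte markers summed to 91.9 to 106 against 47.6 to 69.3 CPM, also without a marker at 0. The 12 markers of cells that are not immune cells summed to 18.5 to 21.8 against 15.7 to 18.4 CPM. For all 4 lists the exact permutation p was 0.0159. Their part in the falls of Ccl5, Xcl1, Cxcr3 and Ccr2, and in those of Ccl12, Ccl6 and Ccr1, which also stood higher in monocytes than in MG, was not tested. With the stricter gate Ccr2 lost its call (log2 fold change -0.18, adjusted p = 0.5002), whereas Ccl12, Ccl6 and Ccr1 were at -0.89, -1.37 and -3.73 (adjusted p = 0.00339, 9.3e-05 and 0.000306). Xcl1 and Ccl5, which stood far higher in T and NK cells than in MG, also kept their call with that gate. By contrast the microglial markers stood at 8529 to 9746 CPM with vehicle and 8509 to 9475 with AZD1480 (exact permutation p = 0.571), and the 10 neutrophil markers at 61.5 to 71.3 against 59.8 to 78.6 CPM (exact permutation p = 0.762).

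The other 21 genes tested in MG were not called. Cxcl10 had a log2 fold change of -0.45 (SE 0.16, adjusted p = 0.0618), Cxcl9 of -2.55 (SE 0.95, adjusted p = 0.0647) and Cxcl13, the ligand of CXCR5, of -2.02 (SE 0.90, adjusted p = 0.116). Without hashtag 1 of vehicle, the value of Cxcl9 was -1.53 (SE 0.94, adjusted p = 0.276). For Cxcl10 the share of thinned MG with a UMI did pass, with 5.56% ± 0.388 (SD, n = 4) against 4.27% ± 0.523 (SD, n = 5; exact permutation p = 0.0159, adjusted p = 0.0370), although unthinned 10.5% and 12.1% of MG had one, against 10.2% and 3.45% of B cells. In all, the share passed for 6 of the 14 genes that at least 1% of MG held, each lower with AZD1480, with Cxcl10, Ccr1, Ccl12, Ccl5 and Ccl6 among them. The share test was not run on genes outside the set, so it cannot tell whether this count is particular to the set. In edgeR 27.0% of all genes tested in MG were called. The unthinned shares of Ccl5 were 4.8% and 3.55% in MG and 2.04% and 3.45% in B cells.

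Border macrophages and monocytes together (MM) were the next class with replicates, from 47 to 93 cells a vehicle hashtag and 15 to 66 an AZD1480 hashtag. Of 15 genes tested 1 was called, and it was higher, against 0.205% of the 3893 genes tested in MM (0.0771% in that direction), and the median log2 fold change of the 15 was 0.51 against 0.0061 for all genes. Cxcl2 was at 1149, 1117, 1773 and 775 CPM with vehicle and at 3188, 3542, 1967, 2557 and 3372 CPM with AZD1480. Every AZD1480 hashtag was above every vehicle hashtag, and Cxcl2 rose by 1.27 on the log2 scale (SE 0.22, adjusted p = 0.0126). The call was lost without vehicle hashtag 1 (adjusted p = 0.0700), with MULTIseqDemux (log2 fold change 2.11, adjusted p = 0.0635) and with the stricter gate (adjusted p = 0.267).

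Another 3 genes did not overlap between the libraries in MM, where 4.26% of all tested genes did not, but they missed the threshold. Ccl12 was at 898, 1247, 624 and 855 CPM against 1504, 2737, 1737, 1884 and 1522 (log2 fold change 1.05, SE 0.22, adjusted p = 0.0532). Ccl2 was at 1705, 1254, 418 and 2017 CPM against 3185, 5185, 2885, 2299 and 3770 (log2 fold change 1.35, SE 0.32, adjusted p = 0.0805). Ccl6 was at 310, 378, 583 and 269 CPM against 205, 94.95, 201, 207 and 92.5 (log2 fold change -1.26, SE 0.28, adjusted p = 0.0690). So the values of Ccl12 and Ccl2 lay higher with AZD1480 in this class and those of Ccl6 lower. For Ccl7 the hashtags overlapped (log2 fold change 0.88, SE 0.50, adjusted p = 0.542). Ccl6 passed under 7 of 20 alternative settings (adjusted p from 1.67e-05 to 0.213) and Ccl2 under 3 of 20 (1.21e-09 to 0.192). Ccl12 passed under 9 of 20 alternative settings, with adjusted p over the 20 from 2.47e-05 to 0.399. It passed, for example, without vehicle hashtag 2, AZD1480 hashtag 4 or AZD1480 hashtag 5 (adjusted p = 0.0221, 0.0349 and 0.0404).

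Beside these values, marker lists of the class were summed per hashtag. The border macrophage markers summed to 4082 to 6490 CPM with vehicle and 3991 to 8394 with AZD1480 (exact permutation p = 0.238), and the monocyte markers to 1491 to 3550 against 1278 to 2563 CPM (exact permutation p = 0.190). The 10 microglial markers were lower with AZD1480 (1378 to 1555 against 861 to 1276 CPM, exact permutation p = 0.0159). The 12 immediate early and stress genes, which respond to cell isolation, summed to 16950 to 22310 CPM with vehicle and 21730 to 35430 with AZD1480 (exact permutation p = 0.0317). The 9 NK markers summed to 12.7 to 150.5 CPM with vehicle and to 0 to 8.89 CPM with AZD1480, with 1 of them at 0 throughout (exact permutation p = 0.0159). The part of these lists in the MM levels was not tested.

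In MM, Ccl8 was too sparse to be tested, at 246, 235, 17.7 and 32.3 CPM with vehicle and 31.1, 24.8, 0, 29.6 and 56.9 CPM with AZD1480. Its library values in border macrophages were 216, 200, 342 and 41.2 CPM in PBS, monomer, PFF + VH and PFF + AZD1480. Of other border macrophage genes, Ccl7 was at 803, 1071, 730 and 2167 CPM, Ccl24 at 347, 346, 570 and 790 CPM and Cxcl1 at 159, 211, 136 and 488 CPM. Of the genes of chr11:82035571-82305690, Ccl2, Ccl7 and Ccl12 were highest in border macrophages of PFF + AZD1480, Ccl8 was lowest there, and Ccl1 had 0 UMIs in the border macrophages of all 4 libraries, where 3 UMIs would be 2.42 to 4.24 CPM.

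Whether the change differed between MM and MG was tested in 1 model over both. Of 15 genes with enough counts in both classes 2 were called, Ccl12 and Ccr1, against 0.518% of 3863 genes. For Ccl12 the change in MM minus that in MG was 1.99 on the log2 scale (SE 0.27, adjusted p = 0.000790): it fell in MG and stood higher in MM. Per hashtag, the log2 excess of MM over MG was 1.25 ± 0.58 (SD, n = 4) with vehicle and 3.22 ± 0.54 (SD, n = 5) with AZD1480 (exact permutation p = 0.0159).

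For Ccr1 the difference was 3.50 (SE 0.54, adjusted p = 0.00281). In MM, Ccr1 was at 100, 95.2, 70.7 and 69.9 CPM with vehicle and 65.3, 99.1, 28.7, 47.4 and 56.9 with AZD1480, with a log2 fold change of -0.44 (SE 0.28, adjusted p = 0.614). So the Ccr1 values of the 2 libraries overlapped in MM and did not in MG. Ccl2 (1.40, SE 0.35, adjusted p = 0.0833) and Cxcl2 (0.73, SE 0.20, adjusted p = 0.125) did not differ at the threshold between the classes, nor did Ccl6 (0.09, SE 0.29, adjusted p = 0.961), with log2 fold changes of -1.26 in MM and -1.36 in MG. Over hashtags, 1 gene at a time, the difference was 1.48 for Ccl2 (exact permutation p = 0.0159, the smallest possible, not adjusted over the 15 genes) and 0.67 for Cxcl2 (exact permutation p = 0.0476, not adjusted).

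**Figure D5:**
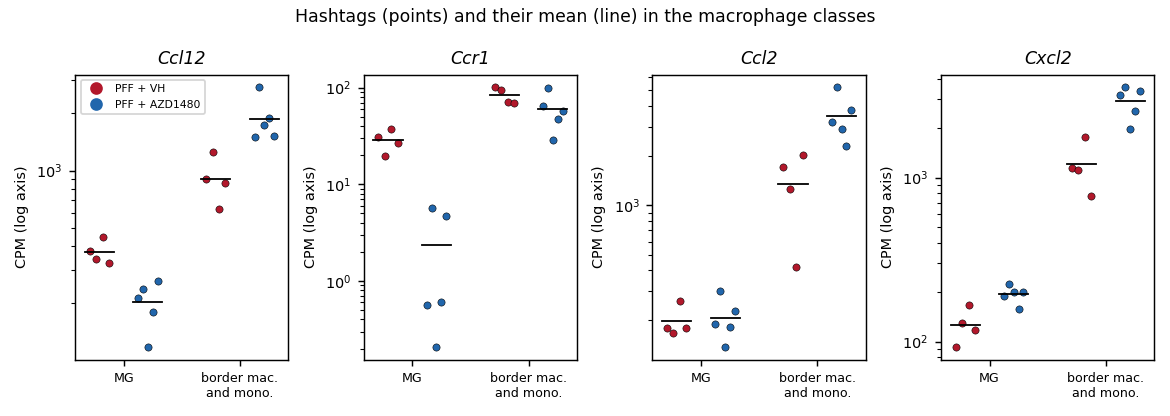
CPM on a log axis of Ccl12, Ccr1, Ccl2 and Cxcl2 for each hashtag (points) of PFF + VH (red) and PFF + AZD1480 (blue), with the mean (line), in microglia (MG) and in border macrophages and monocytes. Ccl12 is lower with AZD1480 in MG and higher in the other class, Ccr1 is lower in MG and overlaps in the other class, and Cxcl2 is higher in both.

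In the sum of T and NK cells, 8 genes were tested, of which 2 were called lower and 0 higher, against 2.27% of 1803 genes called, 1.44% lower and 0.832% higher. Hashtags did not overlap for 1 of the 8, against 4.77% of all genes tested. Xcl1 was at 961, 1168, 505 and 1188 CPM with vehicle and at 303, 594, 90.8, 428 and 371 CPM with AZD1480 (log2 fold change -1.23, SE 0.30, adjusted p = 0.0394), and hashtag 3 of vehicle lay below hashtag 2 of AZD1480. Ccl3 was at 629, 481, 852 and 603 CPM against 359, 365, 0, 258 and 278 CPM, without overlap (log2 fold change -1.12, SE 0.29, adjusted p = 0.0470). The values rested on 29 to 45 cells a vehicle hashtag but on 15, 16, 2, 26 and 6 cells in AZD1480. Xcl1 lost its call in 6 and Ccl3 in 8 of the 9 fits without a hashtag. The fold change of Xcl1 also depended on how hashtags were called: it was -0.04 (adjusted p = 0.995) with HTODemux centred within cells, -0.16 (adjusted p = 0.951) with MULTIseqDemux and -0.55 (adjusted p = 0.551) with the top hashtag at 80% of hashtag UMIs, and that of Ccl3 was -0.80 (adjusted p = 0.209) with the last of these.

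Markers of myeloid cells were lower with AZD1480 in that class. The 13 monocyte markers, 3 of them at 0 throughout, summed to 447.5 to 795 CPM with vehicle and to 0 to 345 CPM with AZD1480, and the 10 border macrophage markers, 4 of them at 0, to 17.0 to 59.4 against 0 to 10.4 CPM (exact permutation p = 0.0159 each). The NK markers summed to 4192 to 6237 CPM with vehicle and 593 to 8261 with AZD1480 (exact permutation p = 0.270), the T cell markers to 1804 to 3734 against 1816 to 5414 CPM (exact permutation p = 0.127), and the microglial markers to 1011 to 1875 against 182 to 676 CPM (exact permutation p = 0.0159). PFF + AZD1480 held 25 NK cells against 79 to 99 in the other libraries, and within NK cells Xcl1 was at 1522, 2284, 1145 and 2533 CPM in the order PBS, monomer, PFF + VH and PFF + AZD1480, so it stood highest there in the inhibitor library. The part of the NK share in the Xcl1 call, and of the myeloid markers in the Ccl3 call, was not tested.

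Over all kept cells, 34 of the genes were tested and 8 called (23.5%), 1 higher and 7 lower, against 25.5% of 14017 genes, 11.7% higher and 13.8% lower. Hashtags did not overlap for 9 of the 34, against 23.5% of all genes tested. In such a sum, fewer cells of a type and less RNA per cell cannot be told apart. Cxcl2 rose by 0.61 on the log2 scale (SE 0.16, adjusted p = 0.0161), and Ccr1, Xcl1, Ccl5, Ccl6, Cxcr3 and Ccl12 were among those that fell, with log2 fold changes of -2.74, -2.14, -1.5965, -1.30, -1.03 and -0.81. Ccl5 was at 63.4, 91.3, 106 and 52.1 CPM in the vehicle hashtags and 26.0, 35.3, 17.5, 19.2 and 37.8 CPM in those of AZD1480.

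The genes that act with chemokine receptors were taken as a list. Of 41 such genes outside the set (atypical receptors, G protein subunits, arrestins, receptor kinases, regulators of migration), 34 were tested in MG, and 10 were called higher and 6 lower, with a median log2 fold change of 0.07. Of all 13582 genes tested in MG, 12.3% were called higher and 14.7% lower, 27.0% in all, with a median of -0.00163. Ccrl2, an atypical receptor that binds chemerin, went from a mean of 331 to 512 CPM (log2 fold change 0.58, SE 0.13, adjusted p = 0.00643). Cx3cr1, the fractalkine receptor of microglia, went from 2836 to 3428 CPM (0.22, SE 0.05, adjusted p = 0.00655), and Grk2, a kinase that desensitises receptors, from 72.4 to 91.1 CPM (0.28, SE 0.06, adjusted p = 0.00376). The largest fall was that of Tiam1, a Rac activator, from 31.3 to 20.5 CPM (-0.67, SE 0.07, adjusted p = 8.82e-05), and Rac2 fell by 0.45 (SE 0.06, adjusted p = 0.000215). In MM, edgeR called 0 of 26 tested pathway genes, with 3 at an unadjusted p under 0.05 and 0 called by DESeq2.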

How the data were processed

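Single-cell RNA was measured with 10x 3′ libraries. The deposited UMI counts, 1 matrix per library, were made by the authors with Cell Ranger 7.0.1 (per the file headers) on mm10, and the hashtag libraries were deposited as counts too. The study's limits on cells were used: 500 to 15000 counts, 250 to 5000 genes, and no more than 10% of counts from mitochondrial genes. The genes and lists described here were chosen with earlier results of these data known, and the thresholds of the classes were set after the data were seen. A cell was given to a class other than MG with at least 3 of its markers and more of its marker UMIs than of MG, and to MG with at least 5 MG marker UMIs and over 2 times those of any other class. Doublets were left in: Scrublet's automatic threshold marked 0, 0, 1 and 0 cells, so an alternative, chosen after seeing the data, left out the cells with the highest 5% of scores.

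Hashtags were called with HTODemux (Seurat 5.3.0, quantile 0.99), and counts were summed per hashtag and class. PFF + AZD1480 (5 hashtags) was compared with PFF + VH (4) by edgeR 4.0.16 (quasi-likelihood test, TMM scaling, filterByExpr, Benjamini-Hochberg adjustment over all tested genes, R 4.3.3), and DESeq2 1.42.0 was an alternative. Nothing in the labels says that hashtags are separate pools, so p-values measure the spread between hashtags. The difference between MM and MG was fitted with the hashtag as a block. Lists and shares were compared by two-sided exact permutation tests over hashtags (scipy 1.17.1), whose smallest p is 0.0159, with cells thinned to 1000 UMIs for shares; 229, 389, 2820 and 173 MG of PBS, monomer, PFF + VH and PFF + AZD1480 were too shallow. Intervals are 95% Poisson or exact binomial ones and cover counting error only. Hashtag values are given for genes past the threshold in any class and library values for the 5 genes with the highest mean in each class. For Ccl4 and Ccl3 in MG the library values are UMIs per thinned cell. Other genes with values, such as those that did not overlap or stood out in 1 hashtag, were chosen after their values were seen. On simulated counts with 2-fold changes the test recovered 92% of changed genes in MG, 57% in MM, 49% in T and NK cells and 86.5% in all kept cells. 1 gene of the set enters the counts but is not reported here.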

Additional observations from a re-analysis of the deposited data

Results flagged for a closer look

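Among 44 groups of hashtags looked at, of which chance alone marks about 1 in 20, 3 held a hashtag far from the others of its group. Ccr6 in MG stood at 128.1 CPM in hashtag 5 of PFF + AZD1480, against 5.56 to 7.75 CPM in the other 4. Cxcl9 in MG stood at 2.018 CPM in the same hashtag, against 0 to 0.186 CPM in the others. Xcl1 in MG stood at 1.046 CPM in hashtag 3 of PFF + AZD1480, against 0.372 to 0.538 CPM in the others, still under every vehicle hashtag.

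The change with AZD1480 differed between cell classes for 2 genes, by the test of the difference itself in edgeR. For Ccl12 the log2 fold change in MM minus that in MG was 1.990 (adjusted p = 0.000790), and for Ccr1 it was 3.503 (adjusted p = 0.00281).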

How the results depend on the processing

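Of the genes called in MG, Ccl12, Ccl6, Ccr1 and Xcl1 kept their direction and call under 20 of 20 alternatives and Cxcr3 under 18 of 18, and the number called was 8 to 11 when 1 hashtag was left out and 7 to 14 otherwise, against 10. The 7 were of 30 genes with MULTIseqDemux (1147 of all 13506 genes tested) and the 14 of 40 without a filter on low counts (3445 of all 23788). With 1 hashtag left out, 2877 to 3394 of all genes tested in MG were called. Cxcl1 lost its call under 8 of 20 alternatives, Ccr2 under 4, and Ccl5 and Cxcl2 under 1 each, MULTIseqDemux, which called a single hashtag for only 16.9% of PFF + VH cells. The differences between MM and MG for Ccl12 and Ccr1 kept their call under 11 of 11, namely 9 fits without 1 hashtag and 2 other hashtag callings. The stricter gate, MULTIseqDemux, the limit of 1000 counts, the doublet filter and DESeq2 were not run for these differences. In MM the 1 call of 15 genes (8 of all 3893 genes tested) became 11 of 37 without a filter on low counts (106 of all 15426). It became 5 of 16 with HTODemux centred within cells (42 of 4309) and 3 of 14 with the top hashtag at 80% (23 of 3359). With the highest Scrublet scores left out it was 2 of 15 (14 of 3943). The stricter gate gave 0 of 14 (4 of 3074) and DESeq2 3 of 36 (37 of 15420). The replicate block, which also left out AZD1480 hashtag 5, gave 2 of 15 (21 of 3860), as did leaving out that hashtag alone (11 of 3860). MULTIseqDemux gave another single call, Ccl6, lower, in place of Cxcl2 (20 of 4405). Leaving out 1 hashtag gave 0 to 4, with 0 without vehicle hashtag 1 (2 of 4088) and 4 without AZD1480 hashtag 4 (34 of 3550). In T and NK cells the 2 calls of 8 genes (41 of all 1803) became 5 of 33 without the filter (98 of 13607). They became 1 of 10 with the top hashtag (38 of 3142) and 1 of 8 with at least 1000 counts per cell (32 of 1780). There were 0 with HTODemux within cells (22 of 2334), 0 with MULTIseqDemux (1 of 2492) and 0 with the stricter gate (6 of 1604). Leaving out 1 hashtag gave 0 to 3, with 3 of 9 without AZD1480 hashtag 3, which held 2 cells (76 of 1931). Over all kept cells the 8 calls of 34 genes (3572 of all 14017) became 3 of 35 with MULTIseqDemux (549 of 14046). The 6 genes whose share of MG passed became 10 without thinning. Unthinned shares also carry depth, with a median of 2551.5 UMIs per MG cell in PFF + VH and 6929 in PFF + AZD1480. So the count of 10 does not bear on direction, and it has no share over all genes beside it. Without 1 hashtag the number was 0 to 0, where fewer hashtags raise the smallest p the test can give. For the other changes the cause was not tested. Hashtags of the same number did not deviate together (correlations in MG of 0.015, 0.027, -0.033 and 0.068), so the numbers were not taken as pairs. The replicate block, fitted without AZD1480 hashtag 5, gave 10 calls in MG (3265 of all 13552 genes), 2 in T and NK cells (14 of 1927) and 9 over all kept cells (2903 of 13956). Leaving out that hashtag alone gave 11 calls in MG (3282 of all 13552 genes), 0 in T and NK cells (29 of 1927) and 9 over all kept cells (3130 of 13956). T and NK cells numbered 2 to 45 a hashtag, and the part of cell number in their few calls was not tested.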
